A study of Mus musculus with 6 samples.

Results

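Mouse dermal fibroblasts in which a silenced X-linked GFP transgene became active after 5-aza-2'-deoxycytidine (decitabine, an inhibitor of DNA methylation) were compared with untreated fibroblasts. The comparison used 4 of the 6 arrays of the study, namely the 2 of treated GFP-positive cells and the 2 of untreated control cells, chosen by their titles. All cells came from explant cultures of the dermis of newborn mice aged 0 to 2 days and were used at passage 4, and the strain is labelled B6. Their fathers, on a mixed 129/ICR background, had an X-linked GFP transgene under a CMV enhancer with a promoter of chicken β-actin, and were bred with wild-type BL6 females. Heterozygous daughters gave the cultures, from which cells without GFP were sorted. These cells hold the transgene on the inactive X chromosome, per the series' design text. Control cells were then kept without drug for 48 hours and for a further 24 hours, and were not sorted again. Treated cells received 4 μM of the drug, renewed every 24 hours, for 48 hours, recovered for 24 hours and were sorted into GFP-positive and GFP-negative cells, 2 arrays each. The effects of the drug and of the second sort cannot be told apart in this comparison. The labels give a mix of sexes for control replicate 2 and female for the other 5 arrays. In the free-text descriptions of the treated and sorted samples the cells are worded as untreated beside the dose, while the titles, treatment fields and protocol name the drug, and these samples are read here as treated. The labels call replicates biological without naming separate animals, so p-values speak only to the spread among the arrays used, which may be partly technical.

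Decitabine is built into DNA during replication, where it traps DNA methyltransferases, so that methylation is lost as cells divide. Methylation of CpG sites keeps the promoters of many germ cell genes silent in somatic cells and helps to keep genes of the inactive X chromosome silent. Dermal fibroblasts make and remodel the collagen, proteoglycans and elastic fibres of the skin.

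The signal was a fluorescence intensity per probe set, scaled to a 2% trimmed mean of 500 on each array, because 2 treated arrays had been deposited without scaling. Differences are given as log2(GFP-positive) minus log2(control) after adding 30.64 to each signal, so a change of dim genes is understated. The standard error (SE) after each ± sign is that of the limma fit to all 6 arrays without a block (n = 2 arrays a group). Of 45037 probe sets, 27022 were bright enough to be tested, and they covered 13223 genes, each read at its brightest probe set. Arrays of replicate number 2 stood apart from those of replicate number 1 in each group, with lower quartiles of 19.2 to 22.6 against 38.7 to 42.6. The change was therefore also taken within each replicate number, and a second fit used the number as a block. The fit without the block is called the unblocked test below and the other the blocked test; both called a probe set at a Benjamini-Hochberg adjusted p under 0.05. The unblocked test called 33 probe sets (0.122%), 24 higher and 9 lower, and the blocked test 1679 (6.21%), 852 higher and 827 lower, including all 33. Below, an adjusted p is that of the blocked test unless the unblocked test is named, and pairs of signals are for replicates 1 and 2, first of control and then of GFP-positive cells. Overlap of signals between the groups is described for named genes only. Its absence is easily met with 2 arrays a group and was not counted over all genes, so it is no separate support. Over genes at their brightest probe set, the unblocked test called 14 higher (0.106%) and 6 lower (0.0454%), and the blocked test 525 higher (3.97%) and 502 lower (3.8%). These counts depend on few arrays and on the mean-variance trend of limma. Without the trend the unblocked test called 0 probe sets and the blocked test 8, and without GFP-positive replicate 2 they called 0 and 467 probe sets.

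The label fibroblast was checked against 14 markers, of which none was under a signal of 100 on all 4 arrays. Their summed signal was 233080 and 242900 in control cells and 190020 and 196950 in GFP-positive cells. Thy1, a fibroblast surface protein, was at 17376 and 15795 in control and 14279 and 12973 in GFP-positive cells. Of the 14 markers, Vim, Fn1 and S100a4 were higher in GFP-positive cells within both replicate numbers and all the others were lower. Some fell by far more than Thy1, such as Dcn from 12516 and 2957 to 1496 and 203. Genes of smooth muscle contraction were also bright, with sums over 27 genes of 229250 and 337880 in control and 282770 and 319990 in GFP-positive cells. Among them Acta2 was at 38437 and 55288 in control and 46085 and 60321 in GFP-positive cells. The 27 had a median difference of 0.17 (0.26 and -0.06 within the replicate numbers). Which cells made them was not tested. Such cultures can also hold other cell types. Sums for 19 leukocyte markers were 2610 and 1388 in control and 2881 and 2425 in GFP-positive cells. Those for 14 endothelial markers were 2013 and 1844 against 2793 and 2154. The defining genes of leukocytes and endothelium, Ptprc and Pecam1, were at most at 60.1 and 15.3. Other leukocyte markers were brighter, such as Csf1r at 546 and 539 in control and 586 and 829 in GFP-positive cells. The 19 had a median difference of 0.48 (0.17 and 0.80 within the replicate numbers), with 13 above 0. Sums were 1197 and 869 against 1454 and 815 for 10 melanocyte markers, and 9480 and 11309 against 7647 and 5751 for 9 Schwann cell markers. Most of the Schwann cell sum was Pmp22 alone, at 8040 and 10634 in control and 6036 and 5006 in GFP-positive cells. Sox10, a marker in both lists, was at 210 and 138 in control and 216 and 154 in GFP-positive cells. Xist, the RNA of the inactive X chromosome, was at 5386 and 832 in control and 3497 and 518 in GFP-positive cells, lower on both replicate 2 arrays, and overlapped between the groups (-0.64 ± 1.22, adjusted p = 0.997 unblocked and 0.0301 blocked). Its change was -0.62 and -0.65 within the replicate numbers, and 1 of its 3 probe sets was lower in the blocked test. In the unblocked fit its difference turned to 0.69 without control replicate 1 and to 0.71 without GFP-positive replicate 2. The Y-linked gene Eif2s3y was at 9.90 and 6.90 in control cells, the second value from the array labelled as of mixed sex. The listed Y-linked genes that were tested were brighter in control cells, with Kdm5d at 68.2 and 93.7, Usp9y at 98.6 and 67.6 and Sry at 125 and 16.9. Whether male cells were present was not tested. Dnmt1, the maintenance methyltransferase that the drug traps, was at 1039.9 and 645 in control and 1312 and 987 in GFP-positive cells. Its difference of 0.46 ± 0.35 passed neither test (adjusted p = 0.966 and 0.154).

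The response ran in both directions, but rises and falls came from different ranges of signal. Of the tested genes, 253 were at least 2-fold higher within both replicate numbers, 37 at least 4-fold and 12 at least 8-fold, while 167, 24 and 3 were lower by as much. The median control signal was 87.7 for the genes 2-fold higher and 1136 for those 2-fold lower. When genes were split into 5 equal groups by control signal, the blocked test called 99, 97, 100, 110 and 119 higher from the dimmest to the brightest group, and 0, 7, 68, 132 and 295 lower. A gene that is dim in control cells has no room to fall on this scale, and could enter the test through its treated arrays alone. For this reason lists of genes, some of which share members, are described below over all their members on the array, and only the counts of calls use the tested ones. Such counts are to be set against the 3.97% called higher and 3.8% called lower over all genes. For lists of bright genes the share of falls among like genes is larger, with 295 of 2645 in the brightest group. Over all 18193 genes on the array, 54.0% had a difference above 0 and the median was 0.04.

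**Figure D1:**
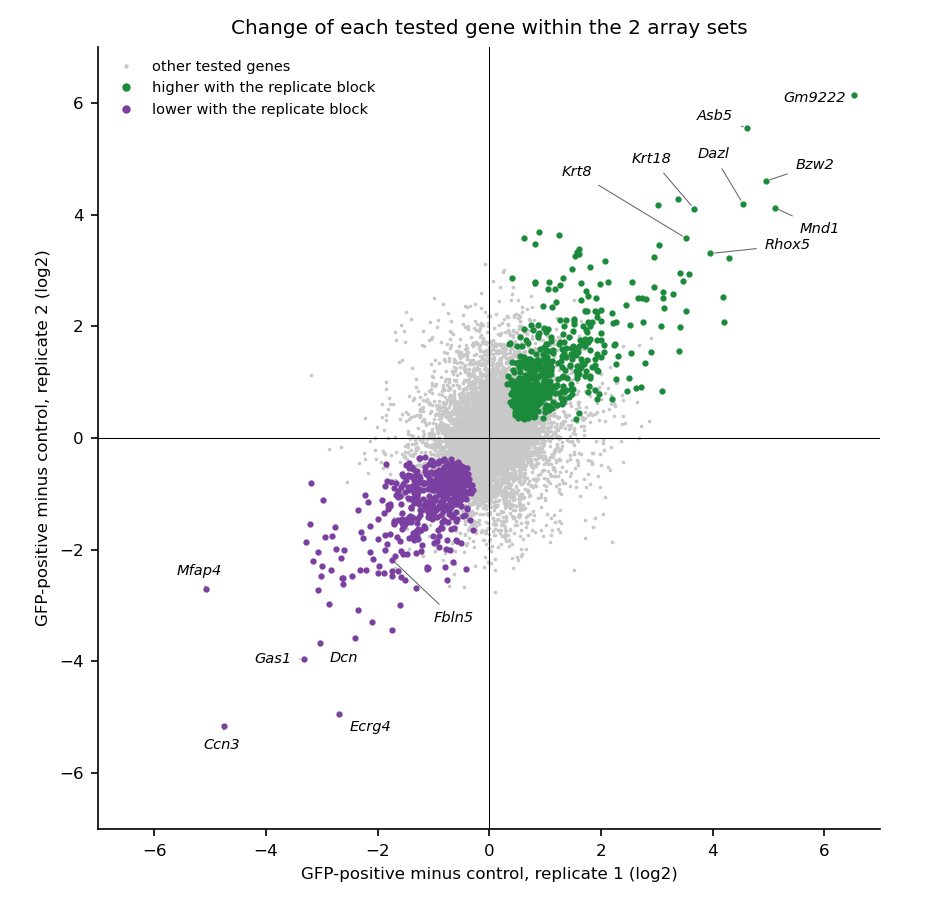
Change of each tested gene, GFP-positive minus control (log2), within replicate 1 (x axis) and replicate 2 (y axis); green and purple points passed the blocked test as higher or lower, grey points did not. The called genes changed in the same direction within both replicate numbers, which selection by the blocked test favours, with Ccn3 at -4.74 and -5.16 and Asb5 at 4.62 and 5.54.

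Germ cell genes rose from low signals. Dazl (probe set 1449502_at, chromosome 17), an RNA-binding protein of germ cells, had signals of 63.3 and 72.2 in control and 2156 and 1851 in GFP-positive cells. Rhox5 (probe set 1423429_at, chromosome X), a homeobox gene of the reproductive tract, had 112 and 95.3 in control and 2185 and 1213 in GFP-positive cells. Gtsf1, a factor of the piRNA pathway, which silences transposons in the germ line, had 42.1 and 8.0 in control and 728 and 723 in GFP-positive cells, and Tex19.1, a germ cell and placental factor, 100.4 and 90.5 in control and 1536 and 893 in GFP-positive cells. Every GFP-positive array was far above both control arrays for these genes. All of them rose in both tests, Dazl by 4.37 ± 0.45, Gtsf1 by 3.83 ± 0.45, Rhox5 by 3.63 ± 0.42 and Tex19.1 by 3.25 ± 0.41, with unblocked adjusted p-values of 0.0286, 0.0399, 0.0376 and 0.0456.

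The promoters of Dazl and Rhox5 are shown because both genes rose, yet their windows differ widely in CpG sites, the positions that DNA methyltransferases modify. The windows run from 250 bases before to 50 bases after the start of the gene, 5′ to 3′ on the strand of the gene, and come from RefSeq (build GRCm38.p6); capitals mark CG. The Dazl window (chr17:50293571-50293870, minus strand) holds 28 CG, and 24.1% of the tested genes with a window have more. The Rhox5 window (chrX:37754358-37754657, plus strand) holds 5, and 87.2% have more. The windows of Gtsf1 and Tex19.1 hold 13 and 16.
Dazl: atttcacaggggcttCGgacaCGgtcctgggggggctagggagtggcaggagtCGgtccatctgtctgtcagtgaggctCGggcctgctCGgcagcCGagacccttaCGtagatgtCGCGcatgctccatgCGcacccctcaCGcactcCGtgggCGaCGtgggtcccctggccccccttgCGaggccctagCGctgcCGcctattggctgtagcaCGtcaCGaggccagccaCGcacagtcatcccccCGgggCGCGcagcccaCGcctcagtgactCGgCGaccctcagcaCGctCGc
Rhox5: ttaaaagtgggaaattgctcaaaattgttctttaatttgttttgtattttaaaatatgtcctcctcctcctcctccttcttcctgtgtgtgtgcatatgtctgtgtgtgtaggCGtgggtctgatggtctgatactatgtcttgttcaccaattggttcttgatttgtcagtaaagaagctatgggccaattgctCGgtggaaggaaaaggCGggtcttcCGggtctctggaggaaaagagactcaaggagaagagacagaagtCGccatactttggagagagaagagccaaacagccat

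Over the list of germ cell genes reported to be silenced by methylation, 46 of the 51 members on the array were above 0, with a median of 0.71 (0.68 within replicate 1 and 0.80 within replicate 2). In the blocked test 7 of the 28 tested members rose and 0 fell, and in the unblocked test 4 and 0. The tested members had a median control signal of 66.6, in the dimmest of the 5 groups, where 0 of 2645 genes fell. They had little room to fall, and some could enter the test through treated arrays alone. The 4 unblocked rises were those of Dazl, Gtsf1, Rhox5 and Tex19.1. The list was chosen with earlier results of these data known, so these counts are no separate support. The others that rose did so in the blocked test. One was Slc25a31, a testis carrier of ADP and ATP (from 6.50 and 15.4 to 291 and 251, 2.86 ± 0.54, adjusted p = 0.00333). The X-linked Taf7l, a testis form of a general transcription factor (from 116 and 51.4 to 772 and 395, 2.41 ± 0.57, adjusted p = 0.000483) was another, and the testis dipeptidase Dpep3 the last (from 17.0 and 12.3 to 159 and 128, 1.94 ± 0.63, adjusted p = 0.0458). The response was not seen across the whole list. A signal under 100 on all 4 arrays was found for 20 members, among them Ddx4, the germ cell helicase (from 25.8 and 5.10 to 63.8 and 63.3), and Mael, a piRNA factor (from 51.9 and 2.20 to 65.5 and 8.91). Outside the list Mnd1, a partner in meiotic recombination, went from 3.0 and 4.8 to 1135 and 586 (4.62 ± 0.78, adjusted p = 0.109 unblocked and 0.000331 blocked). No array of one group reached the other for Mnd1, Slc25a31, Taf7l or Dpep3.

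**Figure D2:**
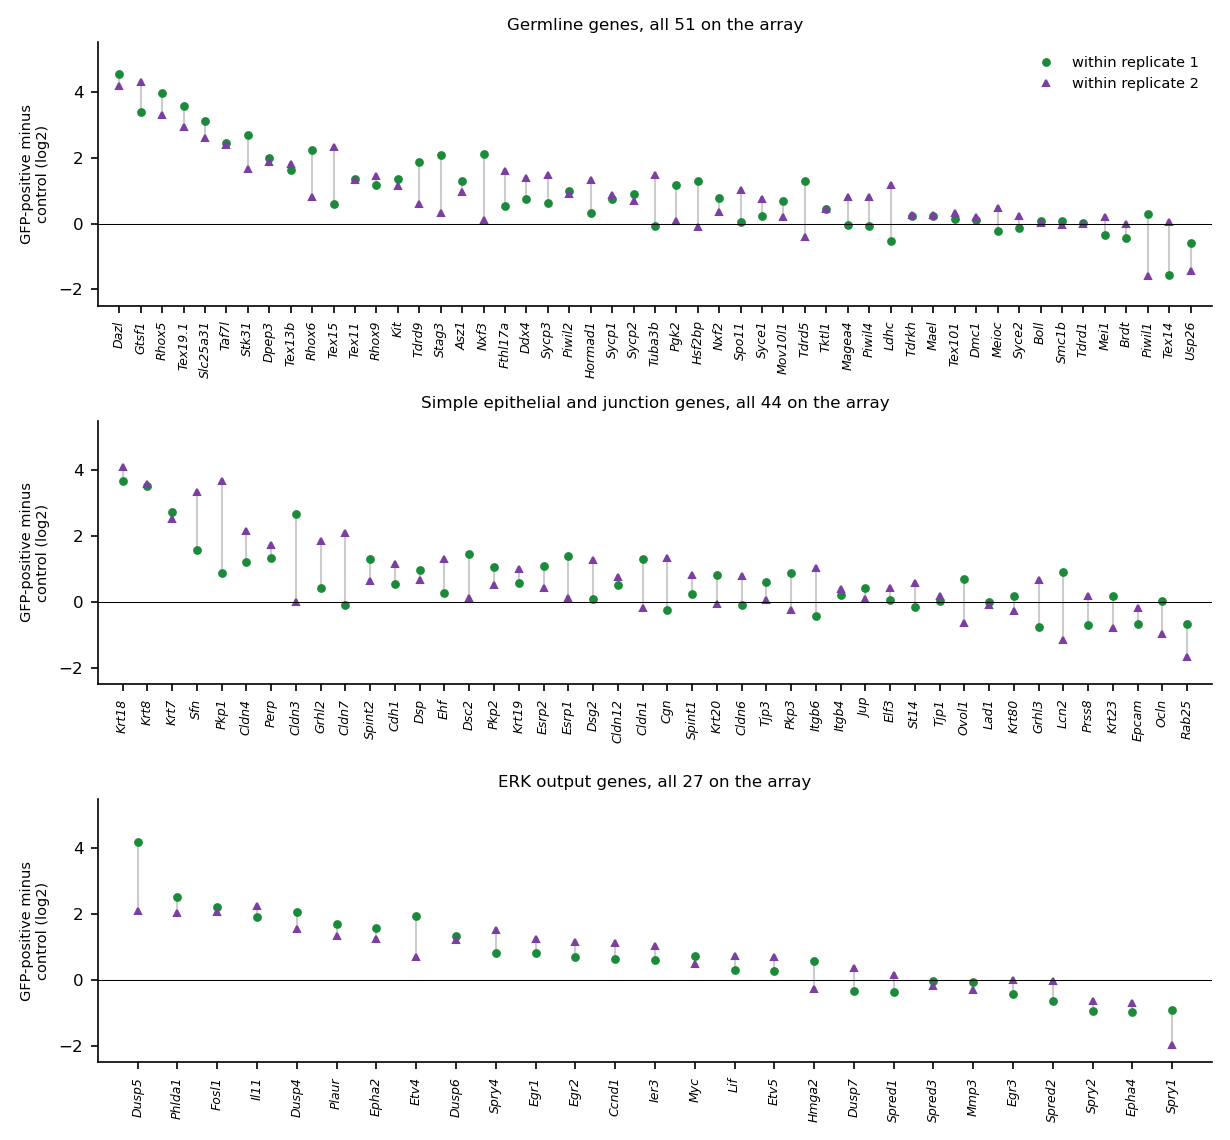
Change of each member, GFP-positive minus control (log2), within replicate 1 (circles) and replicate 2 (triangles), for all members on the array of the germline list (top), the simple epithelial list (middle) and the ERK output list (bottom), ordered by their mean. The germline panel has Dazl at 4.54 and 4.19 at its left end and many members near 0, and the epithelial panel has Krt18 and Krt8 apart from the rest.

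The X chromosome as a whole stood near the median of all genes. Its 443 tested genes had a median of 0.02 (-0.03 within replicate 1 and 0.05 within replicate 2), and 231 (52.1%) were above 0. The blocked test called 18 of them higher (4.06%) and 21 lower (4.74%), near the shares over all genes. Several of the X-linked genes that rose are genes of germ cells or tumours that were dim in control cells. Besides Rhox5 and Taf7l, one was Mageb16, of a family expressed in testis and tumours (from 3.70 and 19.9 to 362 and 214, 2.89 ± 0.66, adjusted p = 0.00771). Trap1a, a tumour rejection antigen, rose likewise (from 23.6 and 5.70 to 386 and 207, 2.83 ± 0.71, adjusted p = 0.00439), as did Dcaf8l (from 42.3 and 3.2 to 529 and 289.9, 3.09 ± 0.74, adjusted p = 0.000934). Their control and GFP-positive signals did not overlap. These X-linked genes, other than Rhox5, Trap1a and Dcaf8l, were picked after their values were seen. Among the X-linked falls in the blocked test were Tnmd, a membrane protein of tendon (from 5199.9 and 2539.6 to 1212 and 542, -2.12 ± 0.46, adjusted p = 5.48e-05), and Gpc4, a heparan sulfate proteoglycan (from 10266 and 13003 to 5802 and 5261, -1.06 ± 0.22, adjusted p = 0.00127). The lymphatic growth factor Vegfd was also among them (from 4169 and 1332 to 641 and 211, -2.57 ± 0.68, adjusted p = 1.84e-05). Of 13 genes reported to escape X inactivation, 8 were above 0 with a median of 0.04, and Shroom4 alone rose in the blocked test (from 65.3 and 377 to 979 and 1163, 2.47 ± 0.60, adjusted p = 0.00840). For Shroom4 the GFP-negative arrays were at 1985 and 1317, above the GFP-positive ones.

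Simple epithelial keratins were among the largest rises outside the germ line. Krt18 (probe set 1448169_at, chromosome 15) had signals of 211 and 249 in control and 3026 and 4784 in GFP-positive cells. Its partner Krt8 (probe set 1420647_a_at, chromosome 15) had 93.9 and 126 in control and 1405 and 1832 in GFP-positive cells. Every GFP-positive array was over 10 times either control array. Krt18 rose by 3.89 ± 0.30 and Krt8 by 3.55 ± 0.29 on its brightest probe set (unblocked adjusted p = 0.0125 and 0.0125, blocked 6.51e-07 and 2.96e-06), and all 3 probe sets of Krt8 were called. They pair into the intermediate filaments of simple epithelia and are neighbours on chromosome 15. Krt7, another simple keratin, had 65.7 and 136 in control and 608 and 917 in GFP-positive cells (2.62 ± 0.39, adjusted p = 0.0763 unblocked and 6.30e-05 blocked). Krt19, of the same kind, was already at 462 and 939 in control cells and reached 699.5 and 1885 (0.78 ± 0.54, adjusted p = 0.0278), and these groups overlapped.

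The Krt8 and Krt18 windows are shown for the contrast between partner genes that rose together, with the same layout, build and capitals as above. The Krt8 window (chr15:102004293-102004592, minus strand) holds 6 CG and the Krt18 window (chr15:102027966-102028265, plus strand) 17.
Krt8: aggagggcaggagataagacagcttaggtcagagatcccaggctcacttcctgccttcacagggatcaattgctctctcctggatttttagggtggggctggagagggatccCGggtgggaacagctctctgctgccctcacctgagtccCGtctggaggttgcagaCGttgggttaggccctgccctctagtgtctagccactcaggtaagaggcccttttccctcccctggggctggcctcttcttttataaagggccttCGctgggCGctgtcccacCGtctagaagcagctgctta
Krt18: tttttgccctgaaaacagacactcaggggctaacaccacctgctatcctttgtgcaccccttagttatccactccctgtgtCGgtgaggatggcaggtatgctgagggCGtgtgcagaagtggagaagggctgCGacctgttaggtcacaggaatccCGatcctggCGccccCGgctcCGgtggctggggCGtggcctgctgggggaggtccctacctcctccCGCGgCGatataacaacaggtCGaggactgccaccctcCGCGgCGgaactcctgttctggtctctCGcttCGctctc

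Of the 44 simple epithelial and junction genes on the array, 35 were above 0, with a median of 0.55 (0.53 and 0.54 within the replicate numbers), and 6 were 2-fold higher in both. A signal under 100 on all 4 arrays was found for 13 of the 44. The blocked test called 10 of 26 tested members higher and 0 lower, and the unblocked test 2 and 0. The tested members had a median control signal of 120, in the dimmest of the 5 groups, where 0 of 2645 genes fell. Among the members that rose in the blocked test beside the keratins was Sfn, a 14-3-3 protein of epithelia (from 161 and 5.90 to 539 and 335, 2.45 ± 0.72, adjusted p = 0.0175). The desmosomal Perp rose as well (from 46.9 and 36.5 to 164 and 191, 1.53 ± 0.49, adjusted p = 0.0493). So did the plakophilins Pkp1 (2.28 ± 0.79) and Pkp2 (0.78 ± 0.34), the protease inhibitor Spint2 (0.96 ± 0.31) and the claudin Cldn12 (0.63 ± 0.42). Of the adhesion genes that define epithelia, E-cadherin, Cdh1, was under 100 on every array (from 15.4 and 17.4 to 36.5 and 75.2), and Epcam was at 331 and 168 in control and 197 and 142 in GFP-positive cells. Markers of keratinocytes, the other main cell type of skin, had a median of 0.09 (0.43 within replicate 1 and -0.19 within replicate 2), with 11 of 18 above 0. In the blocked test 3 of 10 tested markers rose and 0 fell, and 2 were at least 2-fold higher within both replicate numbers. Lor went from 372 and 107 to 798 and 325, and Sbsn from 415 and 219.5 to 620 and 665. The summed signal of the 18 markers was 2305 and 1563 in control cells and 3758 and 4482 in GFP-positive cells. Within replicate 2 most of that difference was Sprr1a, a cornified envelope protein (from 228 and 219 to 758 and 2568, 2.49 ± 0.56, adjusted p = 0.000973). The defining basal keratins Krt5 and Krt14 were at 197 and 71.3 and at 103 and 45.1 in control cells, and at 279 and 52.4 and at 68.1 and 15.8 in GFP-positive cells, and 8 of the markers were under 100 on all 4 arrays. The part of keratinocytes in these rises was not tested.

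Genes downstream of growth factor signalling formed the next group. Phlda1 (probe set 1418835_at, chromosome 10), a target of ERK signalling, had 849.7 and 982 in control and 5042 and 4097 in GFP-positive cells and rose by 2.28 ± 0.22 (adjusted p = 0.0219 unblocked). Fosl1, the AP-1 subunit FRA1, had 304 and 444 in control and 1532 and 1952 in GFP-positive cells and rose by 2.14 ± 0.27 (adjusted p = 0.0456 unblocked). In both genes each GFP-positive array was more than 3 times any control array. Noct (nocturnin), a phosphatase of NADP(H) and an immediate early gene, had 633 and 884 in control and 5724 and 5186 in GFP-positive cells and rose by 2.81 ± 0.25 (adjusted p = 0.0163 unblocked).

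ERK output genes, read as a list, had a median of 0.82 over 27 members (0.65 and 0.74), with 19 above 0 and 8 at least 2-fold higher within both replicate numbers. In the blocked test 15 of 27 rose and 2 fell. The dual specificity phosphatases that switch ERK off rose. Dusp4 had 581 and 1328 in control and 2519 and 3911 in GFP-positive cells (1.8 ± 0.40, adjusted p = 0.000187). Dusp6 had 558 and 914 in control and 1473 and 2153 in GFP-positive cells (1.28 ± 0.33, adjusted p = 0.000619), and Dusp5 had 14.5 and 249 in control and 797 and 1155 in GFP-positive cells (3.14 ± 0.82, adjusted p = 0.000632). Plaur, the urokinase receptor, rose by 1.51 ± 0.27 and the cytokine Il11 by 2.09 ± 0.38 (adjusted p = 0.000177 and 0.000296). Not all feedback genes went the same way. Spry1 and Spry2, inhibitors of receptor tyrosine kinase signalling, fell in the blocked test (Spry1 from 5280.3 and 4674 to 2811 and 1182, -1.43 ± 0.41 and -0.79 ± 0.40, adjusted p = 0.00218 and 0.0282), while Spry4 rose (1.17 ± 0.38, adjusted p = 0.02).

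Among 24 AP-1 and immediate early genes 18 were above 0, with a median of 0.60 (0.39 and 0.50), and the blocked test called 11 higher and 1, Klf4, lower (-0.67 ± 0.31) of 23. Jun rose from 2174 and 1524 to 4832 and 4622 (1.36 ± 0.23, adjusted p = 0.000483) and Atf3 from 132 and 116 to 512 and 515 (1.82 ± 0.62, adjusted p = 0.0324). Fosl1 belongs to both lists. Of the ligands of the EGF receptor, Ereg had 448 and 462 in control and 1951 and 1529.8 in GFP-positive cells (1.86 ± 0.27, adjusted p = 0.0763 unblocked and 0.000157 blocked). Hbegf had 1099 and 2553 in control and 3289 and 7174 in GFP-positive cells (1.52 ± 0.55, adjusted p = 0.567 unblocked and 6.30e-05 blocked), and the receptor's inhibitor Errfi1 also rose in the blocked test (1.48 ± 0.29). For Ereg both GFP-positive arrays were more than 3 times the control arrays, and for Hbegf the change was as large within each replicate number (1.56 and 1.48). The whole list of 16 EGF receptor ligands and receptors had a median of -0.09, so these rises were those of single members.

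**Figure D3:**
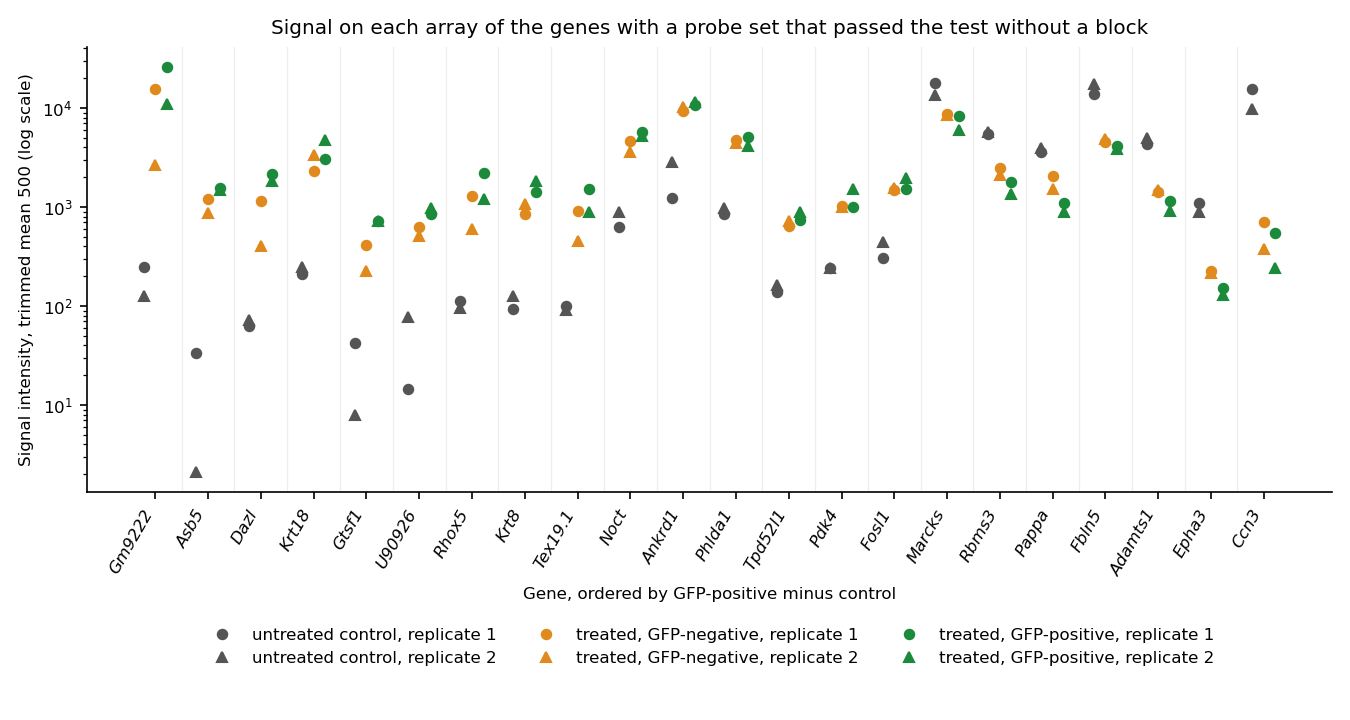
Signal on each array (log axis) of the 22 genes with a probe set that passed the unblocked test, read at the brightest probe set, in untreated (grey), GFP-negative (orange) and GFP-positive cells (green), with circles for replicate 1 and triangles for replicate 2. Genes on the left rose from low control signals, such as Dazl from 63.3 and 72.2, and those on the right fell from high ones, such as Ccn3 from 15436 and 9777.

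Several p53 targets and S phase genes rose in the blocked test. Mdm2, the ubiquitin ligase that degrades p53, had 1795 and 2371 in control and 5543 and 7526 in GFP-positive cells, with both GFP-positive arrays more than 2 times any control array (1.63 ± 0.25, adjusted p = 0.0813 unblocked and 4.83e-05 blocked). Cdkn1a, the p21 inhibitor of cyclin-dependent kinases, had 6804 and 7761 in control and 11306 and 11567 in GFP-positive cells (0.65 ± 0.20, adjusted p = 0.443 unblocked and 0.0101 blocked). Of 42 p53 targets 31 were above 0 with a median of 0.47 (0.35 and 0.49), and in the blocked test 10 of 42 rose and 0 fell. Those that rose include the apoptosis gene Pmaip1 (from 765 and 2359.7 to 3003 and 6792, 1.72 ± 0.57, adjusted p = 0.000313), the cyclin Ccng1 (0.54 ± 0.21), Gtse1 (1.02 ± 0.24) and the costimulatory ligand Cd80 (from 61.0 and 199 to 747 and 381, 1.96 ± 0.49, adjusted p = 0.0167).

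S phase genes had a median of 0.31 over 43 members (0.28 and 0.43), with 36 above 0 and 6 of 41 tested members higher in the blocked test. Among them were Rrm2, a subunit of ribonucleotide reductase (from 4026 and 3160.3 to 6179.9 and 7901, 0.96 ± 0.23, adjusted p = 0.00563), the licensing factor Cdt1 (0.81 ± 0.25, adjusted p = 0.0119) and cyclin E2, Ccne2 (0.95 ± 0.32, adjusted p = 0.0260). Mitosis genes had a median of 0.32, but of 0.10 within replicate 1 and 0.42 within replicate 2. In the blocked test 2 of 42 rose, a share near the 3.97% over all genes. Inhibitors of the cell cycle did not move as one. Cdkn2a, the locus of p16 and p19ARF, fell in the blocked test from 797 and 1285 to 456 and 339 (-1.30 ± 0.33, adjusted p = 0.0113), as did Cdkn1b, p27 (from 1205 and 760.2 to 500.4 and 223, -1.43 ± 0.42, adjusted p = 0.00212), while Cdkn1a rose. Of the enzymes that handle the drug, Dck, the kinase that activates decitabine, had 1493 and 619 in control and 2469.9 and 1239 in GFP-positive cells (0.84 ± 0.45, adjusted p = 0.0411). Cda, the deaminase that inactivates it, had 209 and 126 in control and 372 and 608 in GFP-positive cells (1.39 ± 0.37, adjusted p = 0.0215). Both rose in the blocked test, and the control and GFP-positive signals of Dck overlapped.

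Genes of the matrix that fibroblasts make were among the falls. Ccn3 (probe set 1426852_x_at, chromosome 15), a secreted matricellular protein, had 15436 and 9777 in control and 547 and 243 in GFP-positive cells, with both GFP-positive arrays far below either control array (-4.95 ± 0.44, adjusted p = 0.0163 unblocked). Fbln5, which assembles elastic fibres, had 13877 and 17556 in control and 4143 and 3848 in GFP-positive cells (-1.96 ± 0.21, adjusted p = 0.0325 unblocked). Adamts1, a protease of the proteoglycan versican, had 4291 and 4964 in control and 1146 and 909 in GFP-positive cells (-2.14 ± 0.22, adjusted p = 0.0292 unblocked). None of these groups overlapped, and all 3 genes passed both tests.

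Small leucine-rich proteoglycans, which bind collagen fibrils and set their spacing, were the lowest of the matrix lists. Of 14 on the array 12 were below 0, with a median of -0.75 (-0.87 and -0.66), 5 were at least 2-fold lower in both replicate numbers, and the blocked test called 6 of 11 lower and 0 higher. Decorin, Dcn, had 12516 and 2957 in control and 1496 and 203 in GFP-positive cells, with the replicate 2 array lower in both groups. Its change was -3.04 and -3.68 within the replicate numbers (-3.36 ± 1.15, adjusted p = 0.532 unblocked and 6.69e-06 blocked). Lumican, Lum, had 2319.8 and 934 in control and 291 and 93.0 in GFP-positive cells (-2.92 ± 0.73, adjusted p = 6.30e-05 blocked) and Prelp 3795 and 670.2 in control and 429 and 76.2 in GFP-positive cells (-2.89 ± 0.98, adjusted p = 3.78e-05). Asporin, Aspn, had 15017 and 5567 in control and 3470.3 and 542 in GFP-positive cells (-2.70 ± 0.98, adjusted p = 6.48e-05). Each of these genes differed several-fold between the control arrays, and still no GFP-positive array reached a control array. Osteoglycin, Ogn, and fibromodulin, Fmod, also fell in the blocked test (-1.38 ± 0.33 and -1.05 ± 0.26). In a culture of mixed cells, fewer cells that make such a product and less RNA per cell cannot be told apart.

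Elastic fibre genes had a median of -0.43 over 17 members (-0.50 and -0.64), and 7 of 16 fell and 2 rose in the blocked test. Mfap4 had 1966 and 215 in control and 28.8 and 6.93 in GFP-positive cells (-3.89 ± 0.98, adjusted p = 0.00195), and fibrillin 2, Fbn2, had 2655 and 835 in control and 344 and 138 in GFP-positive cells (-2.60 ± 0.78, adjusted p = 0.000145). Mfap2, a microfibril component, had 2421 and 2042 in control and 748 and 576 in GFP-positive cells (-1.71 ± 0.25, adjusted p = 0.000112). Elastin itself, Eln, went from 2577 and 278 to 257 and 145 (-3.18 and -0.81 within the replicate numbers, adjusted p = 0.0185). The exceptions were Ltbp1 and Ltbp2, which hold latent TGF-β in the matrix and rose (Ltbp1 from 666 and 1358 to 2073 and 3156, 1.40 ± 0.37 and 0.64 ± 0.51, adjusted p = 0.000908 and 0.0458), and the signals of Ltbp2 overlapped.

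Collagen chains fell less. Of 29 chains 22 were below 0, with a median of -0.30 (-0.41 and -0.22), and in the blocked test 9 of 26 fell and 1 rose. The tested chains had a median control signal of 4650, in the brightest of the 5 groups, where 295 of 2645 genes fell. The main fibrillar chains of skin, Col1a1 and Col3a1, both fell in the blocked test. Col1a1 had 27808 and 21661 in control and 20470 and 10237 in GFP-positive cells (-0.76 ± 0.35, adjusted p = 0.0157), and Col3a1 had 31909 and 39808 in control and 20049 and 17471 in GFP-positive cells (-0.93 ± 0.22, adjusted p = 0.00339). Col11a1 fell by more (from 5410.2 and 2278 to 1342 and 817, -1.72 ± 0.45, adjusted p = 0.000190), as did the beaded filament chains Col6a1 and Col6a2 (-1.25 ± 0.49 and -1.44 ± 0.44). The chain that rose was Col7a1, of the anchoring fibrils under the epidermis (from 927 and 938 to 2233 and 1669, 1.03 ± 0.23, adjusted p = 0.00472). The crosslinking enzyme Lox fell in the blocked test (-0.71 ± 0.21, adjusted p = 0.00817) and its relative Loxl4 rose (0.93 ± 0.25, adjusted p = 0.0186).

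Matrix proteases and their inhibitors were mostly lower: 26 of 33 were below 0, the median was -0.58 (-0.48 and -0.52), and in the blocked test 14 of 30 fell and 2 rose. Besides Adamts1 the unblocked test called Pappa, which cleaves binding proteins of insulin-like growth factors (from 3628 and 3913 to 1111 and 884, -1.89 ± 0.24, adjusted p = 0.0477 unblocked). In the blocked test falls were also found for the aggrecanase Adamts5 (from 8005 and 5186 to 1705 and 979.6, -2.29 ± 0.49, adjusted p = 5.48e-05). The metalloprotease Mmp11 (-1.54 ± 0.24, adjusted p = 0.000558), cathepsin K, Ctsk (-1.24 ± 0.22, adjusted p = 0.000678), and Fap, a protease of activated fibroblasts (-2.02 ± 0.47, adjusted p = 0.00109), fell likewise. Timp3, an inhibitor bound to matrix, fell (-1.06 ± 0.25, adjusted p = 0.000331), whereas the soluble inhibitor Timp1 rose (from 11190 and 18442 to 17125 and 27555, 0.60 ± 0.36, adjusted p = 0.0105), with overlapping signals. Mmp10, stromelysin 2, was the other that rose (from 73.2 and 11.7 to 257 and 315, 2.25 ± 0.51, adjusted p = 0.00880).

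**Figure D4:**
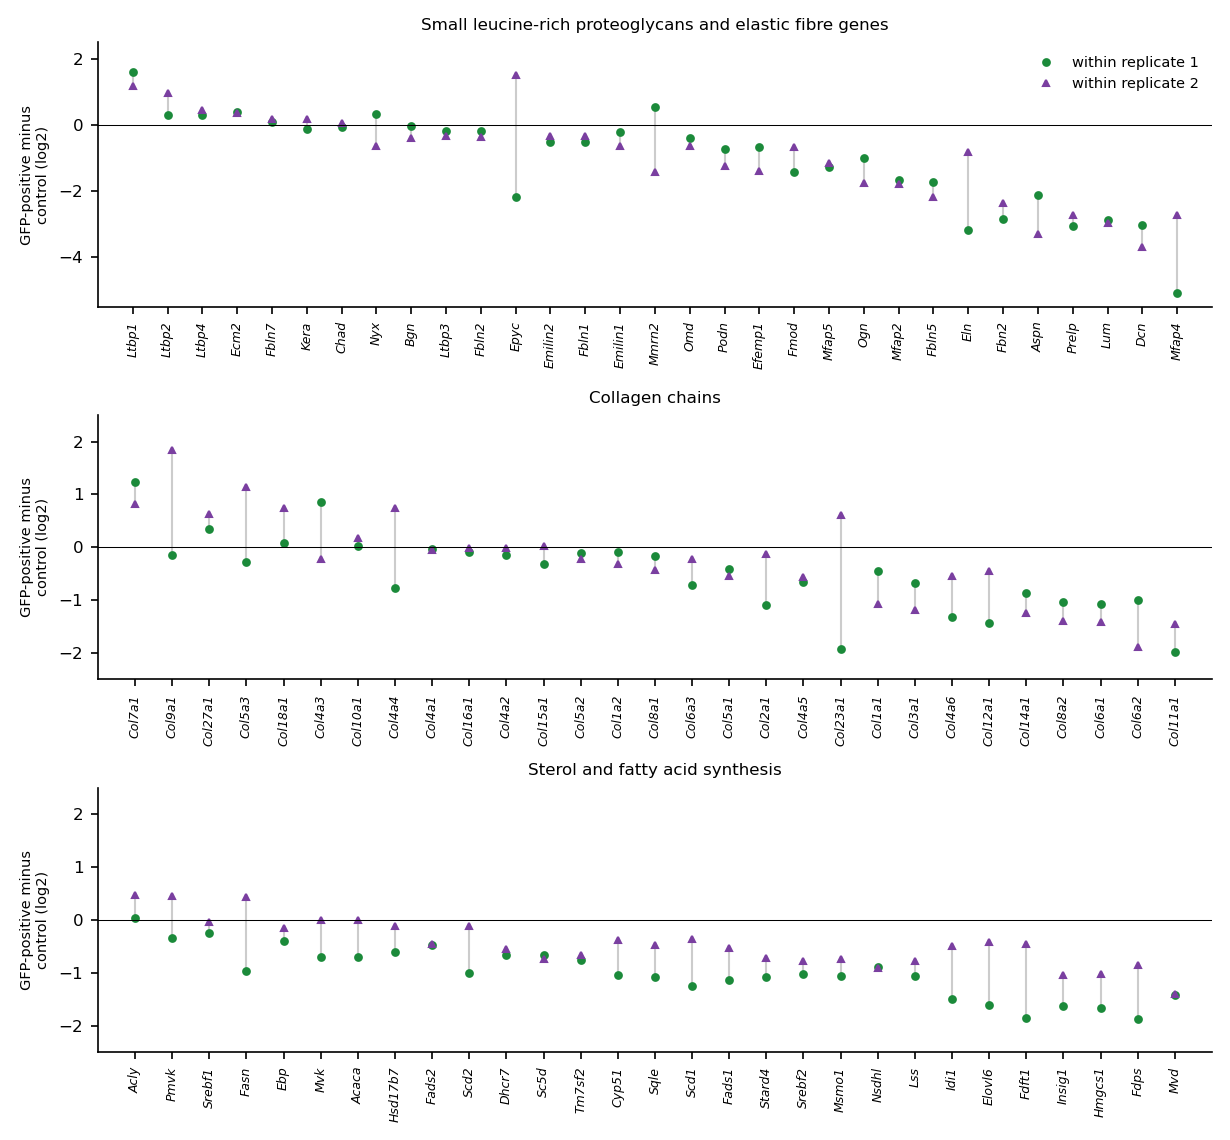
Change of each member, GFP-positive minus control (log2), within replicate 1 (circles) and replicate 2 (triangles), for small leucine-rich proteoglycans and elastic fibre genes (top), collagen chains (middle) and genes of sterol and fatty acid synthesis (bottom), ordered by their mean. At the right end of the top panel Mfap4 is at -5.07 and -2.71 and Dcn at -3.04 and -3.68, and most sterol genes lie below 0 in both replicate numbers.

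Single genes of pathways that signal to mesenchymal cells changed in both directions. Gas1, a coreceptor for Hedgehog ligands, had 5109 and 3291 in control and 486 and 183 in GFP-positive cells, and both GFP-positive arrays were far below either control array (-3.64 ± 0.52, adjusted p = 0.0763 unblocked and 3.60e-06 blocked). Gli2, an effector of that pathway, had 707 and 666 in control and 136 and 202 in GFP-positive cells (-1.86 ± 0.36, adjusted p = 0.00405 blocked), and the coreceptor Cdon fell too (-1.20 ± 0.35, adjusted p = 0.00783), while the 14 Hedgehog genes had a median of -0.13. In the Wnt pathway, 8 of 41 tested genes fell and 2 rose in the blocked test, with a median over 49 of -0.16. The secreted antagonist Sfrp1 had 4767 and 1419.9 in control and 575 and 266 in GFP-positive cells (-2.64 ± 0.82, adjusted p = 0.000211). The R-spondin ligand Rspo3 had 382 and 321 in control and 37.7 and 57.4 in GFP-positive cells (-2.30 ± 0.47, adjusted p = 0.00567), and its receptor Lgr5 1619.6 and 300.1 in control and 166 and 49.5 in GFP-positive cells (-2.56 ± 0.78, adjusted p = 0.00162). The receptor kinase Ror1 had 769.7 and 877 in control and 136 and 232 in GFP-positive cells (-2.03 ± 0.33, adjusted p = 0.000635). The signals of these genes did not overlap between the groups. The frizzled receptors split, with falls of Fzd1 and Fzd2 (-1.13 ± 0.22 and -1.14 ± 0.28) and a rise of Fzd6 (0.98 ± 0.26), all in the blocked test.

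The insulin-like growth factor axis had a median of -0.31 over 20 genes (-0.28 and -0.32), and 6 of 19 fell and 0 rose in the blocked test. Falls included both receptors, Igf1r (from 1582 and 1997 to 802 and 1052, -0.93 ± 0.27, adjusted p = 0.0255) and Igf2r (from 5445 and 5100.2 to 2180.1 and 2790.4, -1.09 ± 0.22, adjusted p = 0.00214). They also included the adaptor Irs1 (-1.23 ± 0.25, adjusted p = 0.00258) and the binding protein Igfbp2 (-1.15 ± 0.27, adjusted p = 0.00724). The PDGF receptors, which mark fibroblasts, fell in the blocked test, Pdgfrb from 13838 and 8464 to 5702 and 4833 (-1.04 ± 0.27, adjusted p = 0.00334) and Pdgfra from 2180.4 and 1067 to 826 and 307 (-1.53 ± 0.69, adjusted p = 0.00217). The ligands Pdgfd and Hgf fell (-1.15 ± 0.34 and -1.35 ± 0.34), and Pdgfa and the macrophage growth factor Csf1 rose (0.85 ± 0.24 and 1.12 ± 0.26, adjusted p = 0.0105 and 0.000973). Among guidance genes the ephrin receptor Epha3 fell in both tests (from 1097 and 890.0 to 153 and 131, -2.57 ± 0.30, unblocked adjusted p = 0.0376). The secreted cues Slit2 and Slit3 fell in the blocked one (-2.08 ± 0.38 and -1.55 ± 0.45, adjusted p = 9.24e-06 and 0.000136). Epha2, Sema3e and Sema7a rose in the blocked test (1.41 ± 0.39, 2.21 ± 0.32 and 1.39 ± 0.26), and the list of 50 had a median of -0.12. In the TGF-β and BMP pathway the activin receptor Acvr2a fell (from 1929.8 and 1322 to 508 and 376, -1.8 ± 0.29, adjusted p = 0.000231) and the activin subunit Inhba rose (from 3575 and 5574 to 7609 and 9778, 0.95 ± 0.27, adjusted p = 0.00220).

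Transcription factors of mesenchymal cells were mostly lower by modest amounts. Of 47 factors 36 were below 0, with a median of -0.34 (-0.23 and -0.55), and in the blocked test 10 of 41 fell and 1 rose. Prrx1, a homeobox factor of limb and dermal mesenchyme, had 6275 and 6484 in control and 3194 and 3110 in GFP-positive cells, and all 5 of its probe sets were lower in the blocked test (-1.01 ± 0.19, adjusted p = 0.000808). Osr1, a zinc finger factor of mesoderm, had 1265 and 1054 in control and 159.6 and 331 in GFP-positive cells (-2.18 ± 0.48, adjusted p = 0.00222). Among others that fell, Twist1, Nfia and Eya4 were at -0.88 ± 0.33, -1.51 ± 0.35 and -1.60 ± 0.34 (adjusted p = 0.0136, 0.00361 and 0.00645). The factor that rose was Foxf1 (from 287 and 180 to 608 and 484, 1.15 ± 0.32, adjusted p = 0.0100). Genes subject to imprinting, which is itself a form of methylation control, were not raised as a list: 23 of 34 were below 0, with a median of -0.11, and 5 of 26 fell while 1 rose in the blocked test. Peg3, a paternally expressed zinc finger gene, had 2087 and 2133 in control and 669 and 574 in GFP-positive cells (-1.72 ± 0.24, adjusted p = 0.0702 unblocked and 0.000165 blocked), and Grb10, an adaptor of insulin signalling, fell in the blocked test (-0.80 ± 0.22, adjusted p = 0.00393). Dcn and Igf2r belong to this list too, and Slc38a4 was the member that rose (1.04 ± 0.34, adjusted p = 0.0378).

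Cell surface and adhesion genes changed both ways. Of 21 tested integrins and laminins 3 rose and 4 fell in the blocked test. Itga8, an integrin of mesenchyme, had 2748 and 2321 in control and 665 and 408 in GFP-positive cells (-2.21 ± 0.35, adjusted p = 0.0894 unblocked and 5.48e-05 blocked), and the laminin chain Lama4 fell (-1.49 ± 0.74, adjusted p = 0.000545). Itga6 and Itga3, subunits of laminin receptors, rose (Itga6 from 306 and 361 to 586 and 1347, 1.34 ± 0.43 and 1.11 ± 0.31, adjusted p = 0.00644 and 0.0155), as did Itga5, of the fibronectin receptor (0.80 ± 0.20, adjusted p = 0.00567). Npnt, nephronectin, a matrix ligand of Itga8, rose from 448 and 194 to 1638 and 1852 (2.44 ± 0.36, adjusted p = 0.000306). Among matricellular genes Ccn5 had 8626 and 8287 in control and 2812 and 1013 in GFP-positive cells (-2.30 ± 0.48, adjusted p = 0.000326). Thrombospondin 2, Thbs2, fell on all 3 of its probe sets (-1.01 ± 0.22), while Ccn1 rose (from 14646 and 12636 to 25404 and 21388, 0.78 ± 0.25, adjusted p = 0.00443). Ccn1 is a target of YAP, whose signature had 2 of 24 tested genes higher and 4 lower in the blocked test. Of its 24 genes 16 were above 0, with a median of 0.30 (0.30 and 0.18 within the replicate numbers). Rbms3, an RNA-binding protein of that signature, fell in both tests (from 5406 and 5665 to 1797 and 1365, -1.8 ± 0.23, unblocked adjusted p = 0.0456).

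Of fibroblast surface markers 4 of 19 rose and 5 fell in the blocked test. Cd248, endosialin, had 4706 and 4637 in control and 2316 and 2087 in GFP-positive cells (-1.08 ± 0.21, adjusted p = 0.00128). In contrast, the adhesion receptor Icam1 had 77.2 and 11.1 in control and 338 and 213 in GFP-positive cells (2.16 ± 0.59, adjusted p = 0.00578), and Cd44, the hyaluronan receptor, had 8061 and 8538 in control and 12718 and 12946 in GFP-positive cells (0.63 ± 0.20, adjusted p = 0.0116). The intermediate filament genes Nes, nestin, and Des, desmin, rose. Nes had 407 and 391 in control and 1214 and 1284 in GFP-positive cells (1.57 ± 0.23, adjusted p = 0.0763 unblocked and 0.000331 blocked). Des had 44.6 and 69.1 in control and 224 and 391 in GFP-positive cells (1.92 ± 0.44, adjusted p = 0.258 unblocked and 0.0101 blocked). The mesenchymal cadherin Cdh11 fell in the blocked test from 21021 and 17066 to 10829 and 10142 (-0.85 ± 0.22, adjusted p = 0.00189).

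Other genes with large changes belong to none of these lists. Gm9222 (probe set 1438050_x_at) went from 248 and 126 to 25836 and 10978 (6.34 ± 0.77, adjusted p = 0.0424 unblocked), and the ending x_at marks a probe set whose probes can match several transcripts. Bzw2, a regulator of translation initiation, had 90.7 and 37.3 in control and 3742 and 1618 in GFP-positive cells (4.78 ± 0.73, adjusted p = 0.0812 unblocked and 9.07e-06 blocked), on 1 of its 2 probe sets. U90926 and Tpd52l1, a member of the tumour protein D52 family, rose in both tests. U90926 had 14.4 and 76.9 in control and 849 and 978 in GFP-positive cells (3.76 ± 0.44, adjusted p = 0.0376 unblocked), and Tpd52l1 had 138 and 162 in control and 738 and 884 in GFP-positive cells (2.22 ± 0.27, adjusted p = 0.0456 unblocked). Every GFP-positive array was above both control arrays for these 4 genes. In the blocked test large rises were also found for Serpinb2, an inhibitor of plasminogen activators (from 40.5 and 62.9 to 549 and 1648, 3.60 ± 0.62, adjusted p = 5.48e-05), and for the antiviral factor Trim5 (from 11.6 and 2.60 to 434 and 204, 3.14 ± 0.81, adjusted p = 0.00444). The ATP receptor P2rx7 rose (from 105 and 41.3 to 771 and 469, 2.68 ± 0.64, adjusted p = 0.000693), as did the transporter Slc47a1 (from 21.0 and 28.0 to 913 and 309, 3.36 ± 0.87, adjusted p = 0.00460) and the sterol transfer protein Gramd1c (from 8.10 and 6.30 to 349 and 189, 2.93 ± 0.58, adjusted p = 0.00302).

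Among the largest falls in the blocked test, Ecrg4, a secreted peptide precursor, had 5084 and 1787 in control and 760.2 and 28.7 in GFP-positive cells, with a change of -2.69 and -4.94 within the replicate numbers and all 3 probe sets lower (-3.82 ± 1.31, adjusted p = 0.000243). Cygb, cytoglobin, a globin of fibroblasts, had 468 and 480.2 in control and 50.8 and 52.4 in GFP-positive cells (-2.62 ± 0.43, adjusted p = 0.00131), and its signals were close within each group. The potassium channel subunit Kcne4 had 1563 and 1041 in control and 271 and 59.4 in GFP-positive cells (-2.99 ± 0.60, adjusted p = 0.000117). Islr, a surface protein of mesenchymal cells, had 1952 and 607 in control and 215 and 85.1 in GFP-positive cells (-2.74 ± 0.64, adjusted p = 8.11e-05). No GFP-positive array reached a control array for these genes. The same held for the growth factor pleiotrophin, Ptn (from 21573 and 14500 to 6426 and 2603, -2.10 ± 0.57, adjusted p = 0.000132), and the glypican Gpc6 (from 3781 and 1627 to 1049 and 658, -1.54 ± 0.43, adjusted p = 0.000702). It held for the Ras-related Rerg too (from 859.9 and 294 to 143 and 7.92, -2.72 ± 0.81, adjusted p = 0.00190), for Elobl (from 213 and 156 to 13.7 and 2.97, -2.46 ± 0.79, adjusted p = 0.0395) and for Ppp1r3c, a glycogen-targeting subunit of protein phosphatase (from 237 and 163 to 23.4 and 6.93, -2.34 ± 0.73, adjusted p = 0.0339). Marcks, a substrate of protein kinase C, fell in the blocked test on 5 of its 7 probe sets, 1 of which passed the unblocked test, and was at 17832 and 13556 in control and 8216 and 6058 in GFP-positive cells on the brightest (-1.14 ± 0.24, adjusted p = 0.000553).

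**Figure D5:**
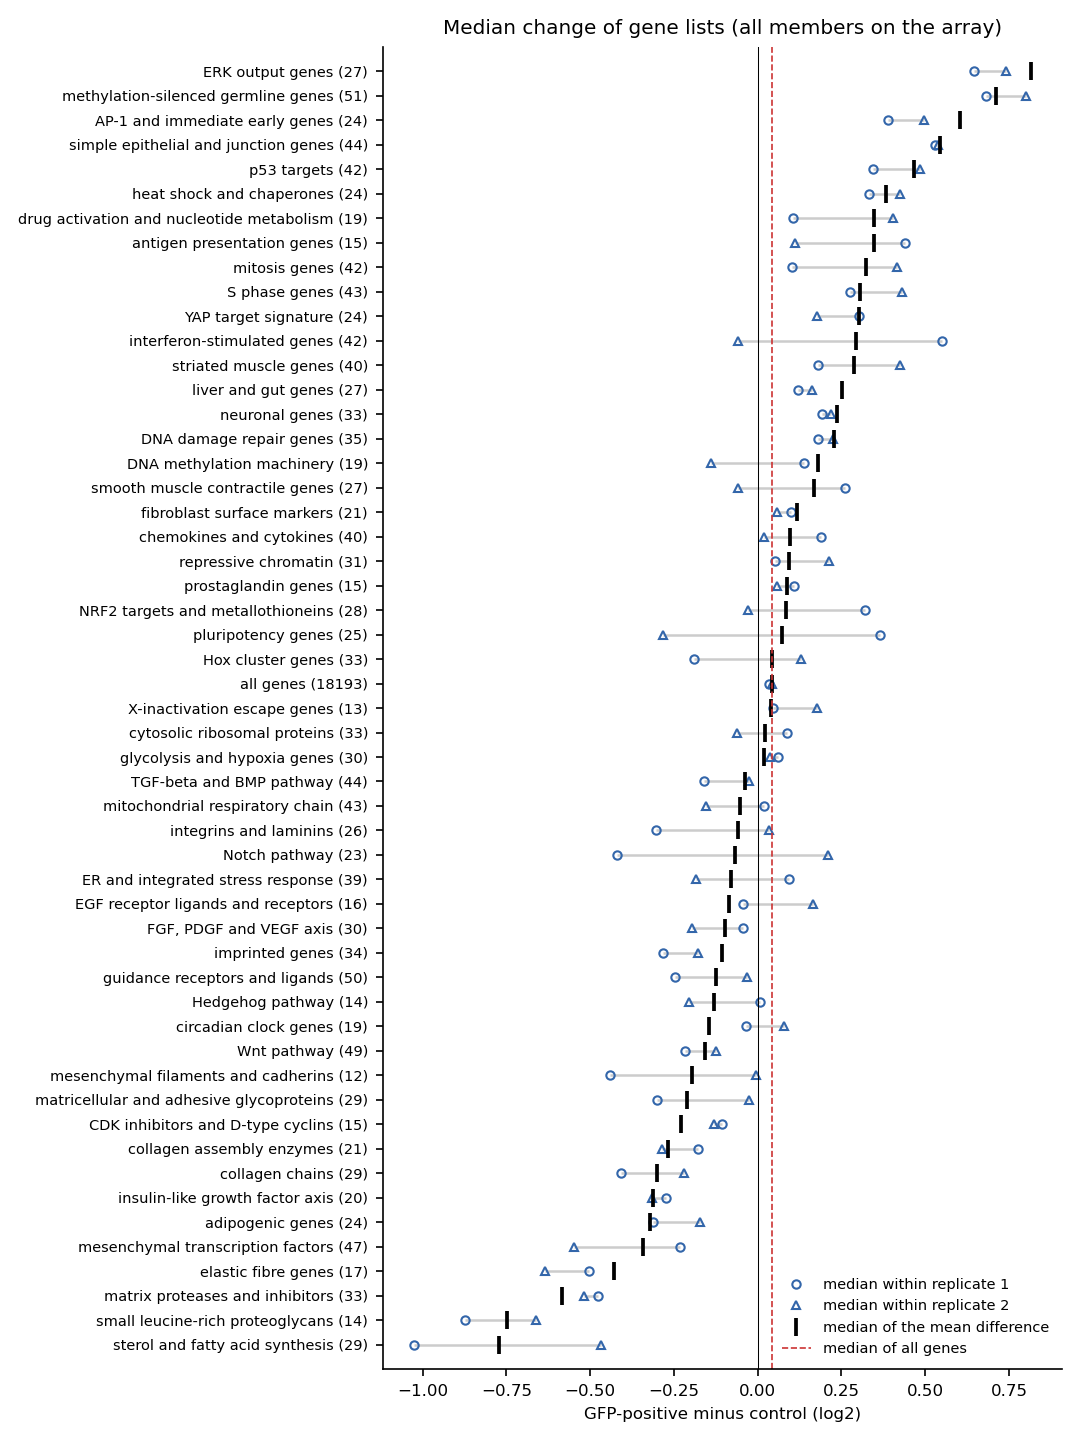
Median change of gene lists, GFP-positive minus control (log2), over all members on the array (number in brackets), for the mean difference (bars) and within replicate 1 (circles) and replicate 2 (triangles); the dashed line marks the median of all genes, 0.04. Sterol synthesis, small leucine-rich proteoglycans and matrix proteases stand lowest, at -0.77, -0.75 and -0.58, and ERK output and germline genes highest, at 0.82 and 0.71.

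Genes of sterol and fatty acid synthesis were lower almost throughout. Of 29 genes 27 were below 0, with a median of -0.77, larger within replicate 1 (-1.03) than within replicate 2 (-0.47), and in the blocked test 14 of 29 fell and 0 rose. Hmgcs1, an early enzyme of the mevalonate pathway, had 8487 and 11760 in control and 2652 and 5778 in GFP-positive cells (-1.34 ± 0.44, adjusted p = 0.000619), and all 4 of its probe sets were lower. Mvd had 668 and 743 in control and 230 and 263 in GFP-positive cells (-1.41 ± 0.32, adjusted p = 0.00457), and Fdps had 8047 and 7789.7 in control and 2173 and 4291 in GFP-positive cells (-1.36 ± 0.46, adjusted p = 0.00914). Insig1, the sensor that holds the sterol response in check, had 910.1 and 1155 in control and 274 and 543 in GFP-positive cells (-1.34 ± 0.44, adjusted p = 0.00546). For these genes no GFP-positive array reached the control arrays. Srebf2, the transcription factor of the pathway, fell in the blocked test (-0.90 ± 0.36, adjusted p = 0.0144). Genes of the integrated stress response went the same way in part, with Trib3 at 2601 and 1872 in control and 975 and 526 in GFP-positive cells (-1.58 ± 0.34, adjusted p = 0.000489). Atf5 and Chac1 were lower in the blocked test (-0.71 ± 0.38 and -0.82 ± 0.30). Of the wider endoplasmic reticulum list, 7 of 39 members fell and 0 rose in that test.

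Other metabolic and stress lists held changes of single members. Pdk4, a kinase that inhibits pyruvate dehydrogenase, rose in both tests (from 241 and 243 to 992 and 1514, 2.21 ± 0.28, unblocked adjusted p = 0.0456). The oxygen sensor Egln3 and the glycolytic regulator Pfkfb4 rose in the blocked one (Egln3 from 231 and 281 to 612 and 913, 1.45 ± 0.31 and 1.10 ± 0.25, adjusted p = 0.00180 and 0.00526). The hypoxia factor Hif1a itself fell (from 7769 and 7843 to 4747 and 5555, -0.60 ± 0.21, adjusted p = 0.0173), and the 30 genes of glycolysis and hypoxia had a median of 0.02. Metallothionein 2, Mt2, rose (from 899 and 1203 to 1856 and 4548, 1.46 ± 0.49, adjusted p = 0.00155), and of 27 NRF2 targets and metallothioneins 6 rose and 2 fell. Chaperones were higher as a list, with 20 of 24 above 0, a median of 0.38 (0.33 and 0.42) and 4 of 22 called higher, among them Hsp90aa1 (from 15718 and 16047 to 24188 and 24623, 0.62 ± 0.21, adjusted p = 0.0165). Of adipogenic genes the factor Cebpd fell (from 2671 and 2148 to 566 and 956, -1.66 ± 0.37, adjusted p = 0.00279). Angptl4, an inhibitor of lipoprotein lipase, and Plin2, a coat protein of lipid droplets, rose (Angptl4 from 148 and 224 to 561 and 817, 1.73 ± 0.39 and 1.08 ± 0.36, adjusted p = 0.000694 and 0.00375).

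Inflammatory and defence genes rose in part. The chemokine Ccl2 had 2094 and 1885 in control and 6638 and 5049.5 in GFP-positive cells (1.53 ± 0.24, adjusted p = 0.0894 unblocked and 7.07e-05 blocked). Ptgs2, the inducible cyclooxygenase, had 1949.9 and 3252 in control and 7931 and 8965 in GFP-positive cells (1.73 ± 0.28, adjusted p = 0.102 unblocked and 0.000547 blocked). The NF-κB inhibitors Nfkbia and Tnfaip3 were at 1.21 ± 0.21 and 1.82 ± 0.45 (adjusted p = 0.000571 and 0.0115 blocked). No signals of Ccl2 or Ptgs2 overlapped between the groups. Class I antigen presentation had 4 of 13 tested genes higher and 0 lower in the blocked test. H2-M3 was at 346 and 202 in control and 873 and 740.2 in GFP-positive cells (1.5 ± 0.33, adjusted p = 0.00184), and H2-D1 at 3018 and 2048 in control and 6753 and 3929 in GFP-positive cells (1.04 ± 0.37, adjusted p = 0.000945). Its median over 15 genes was 0.44 within replicate 1 and 0.11 within replicate 2. Interferon-stimulated genes differed between the replicate numbers, with a median over 42 of 0.55 within replicate 1 and -0.06 within replicate 2, and 1 of 38, Usp18, passed the blocked test. In the same list Rtp4 changed by 2.85 and 0.31 and passed neither test.

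Some genes of other lineages appeared. Asb5 (probe set 1449356_at, chromosome 8), a ubiquitin ligase adaptor known from muscle, went from 33.8 and 2.10 to 1549.9 and 1496, with no overlap (5.08 ± 0.38, adjusted p = 0.0125 unblocked). Ankrd1, a cardiac and skeletal muscle ankyrin protein that is also a target of YAP, had 1248 and 2838 in control and 10792 and 11554 in GFP-positive cells (2.55 ± 0.35, adjusted p = 0.0724 unblocked and 6.48e-05 blocked), and its other probe set was called unblocked. Skeletal actin, Acta1, had 4084 and 9193 in control and 12483 and 12559 in GFP-positive cells and cardiac troponin T, Tnnt2, 533 and 479 in control and 838 and 1950.3 in GFP-positive cells (1.03 ± 0.37 and 1.29 ± 0.40, adjusted p = 0.0164 and 0.0152 blocked). The muscle list as a whole had a median of 0.29 over 40, of which 13 were under 100 on all 4 arrays, and 5 of 21 tested members rose. The regulator that defines myoblasts, Myod1, was at 68.2 and 137 in control and 112 and 71.2 in GFP-positive cells, and Myog at 10.6 and 8.90 in control and 13.4 and 86.1 in GFP-positive cells. Afp, the fetal liver secretory protein, went from 1.30 and 29.4 to 309 and 433 (3.18 ± 0.48, adjusted p = 0.0812 unblocked and 0.000483 blocked), and all 3 of its probe sets rose in the blocked test. Albumin, Alb, was at 27.7 and 6.70 in control and 69.4 and 4.95 in GFP-positive cells. Uchl1, a ubiquitin hydrolase of neurons and germ cells, and Tubb3, neuronal β-tubulin, rose in the blocked test. Uchl1 had 169.7 and 417 in control and 908 and 1392 in GFP-positive cells (1.95 ± 0.43), and Tubb3 had 363 and 403 in control and 696 and 1079.6 in GFP-positive cells (1.12 ± 0.29). Pluripotency genes had a median of 0.07 over 25 genes, 0.36 within replicate 1 and -0.28 within replicate 2.

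The medians of several other groups lay near that of all genes over the 4 arrays. Cytosolic ribosomal proteins and the mitochondrial respiratory chain had medians of 0.02 over 33 genes and -0.05 over 43. Hox cluster and Notch pathway genes had medians of 0.04 and -0.07, but differed between the replicate numbers: Hox genes were at -0.19 within replicate 1 and 0.13 within replicate 2, and Notch genes at -0.42 and 0.21. In the DNA methylation machinery 1 of 16 genes rose and 1 fell in the blocked test, Mbd1, which binds methylated DNA, by 0.72 ± 0.27 and Zbtb4, which does so too, by -0.80 ± 0.69 (adjusted p = 0.0465 and 0.0292), and the signals of Zbtb4 overlapped. Of 31 genes of repressive chromatin the histone methyltransferase Suv39h2 alone passed the blocked test (from 170.2 and 5.30 to 582 and 322, 2.45 ± 0.78, adjusted p = 0.00447).

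Set against the GFP-negative cells of the same cultures, no gene passed either test (0.0% higher and 0.0% lower in the blocked test). Limma gave 169 probe sets at an unadjusted p under 0.05 without the block and 1553 with it. For the germline list the GFP-positive signal was above the GFP-negative one within both replicate numbers for 29 of 51 members (56.9%), against 26.8% of all genes, and the median difference was 0.50, against 0.00. The share was 66.7% for heat shock and chaperone genes and 63.6% for cytosolic ribosomal proteins, with median differences of 0.18 and 0.11, so the germline share was not the highest among the lists. Dazl was at 1151 and 407 in GFP-negative cells and at 2156 and 1851 in GFP-positive cells (1.5 ± 0.45), Rhox5 at 1282 and 597 and 2185 and 1213 (0.87 ± 0.42), and Gtsf1 at 415 and 224 and 728 and 723 (1.17 ± 0.45). All GFP-positive arrays except Rhox5 replicate 2 were above both GFP-negative arrays for these genes. The comparison shares its GFP-positive arrays with that against control cells. The median of GFP-positive minus GFP-negative was 0.14 for simple epithelial genes, -0.02 for ERK output genes, -0.03 for small leucine-rich proteoglycans and 0.02 for sterol synthesis genes. Krt18 was at 2292 and 3341, Fosl1 at 1491 and 1565 and Ccn3 at 709 and 376 in GFP-negative cells, and overlapped with their GFP-positive signals (3026 and 4784, 1532 and 1952 and 547 and 243). Whether these lists differ from the germline list in this respect was not tested.

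The number of CpG sites near the start was set beside the direction of change for the 10643 tested genes with a RefSeq window. The median was 20 CG over all of them, 19 for the 417 called higher and 18 for the 370 called lower in the blocked test. Among genes changed at least 2-fold within both replicate numbers it was 12 for the 204 higher and 12 for the 115 lower, and 26.5% and 26.1% of them had 5 CG or fewer, against 12.8% of all. Genes with 5 CG or fewer were thus as frequent among falls as among rises, with no test made of it. With 0 to 2 CG, 30 of 547 genes were 2-fold higher and 13 lower, and with 3 to 5 CG 24 and 17 of 811. Such genes were dim in control cells, with median signals of 117 and 126, against 692 for genes with 21 to 65 CG. The share of dim genes in the 2-fold sets was not separated from the CpG count. A count of CG in the window gives no level of methylation, which was not measured on these arrays.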

How the data were processed

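RNA of 6 samples was measured on Affymetrix Mouse Genome 430 2.0 arrays, and the deposited intensity per probe set was computed by the authors with MAS5, per the submitters' processing notes. Every array was scaled here to a 2% trimmed mean of 500, because 2 arrays had trimmed means of 62.0 and 50.5 as deposited. Control probe sets (64) were left out. Probe sets under the 40th percentile of mean signal over the 6 arrays were not tested. The offset of 30.64 is the median lower quartile. Log2 values were fitted with limma 3.58.1 in R 4.3.3, as 3 groups with a trended prior (called at a Benjamini-Hochberg adjusted p under 0.05), without and with the replicate number as a block. Same-numbered arrays deviated together from their group means (correlations of 0.506 to 0.556 over 27022 probe sets), so the numbers pair the samples, as array sets and not as animals named in the labels. A gene is given at its brightest tested probe set; 34945 probe sets had 1 symbol, 932 several and 9160 none. Genes were named where a probe set passed the unblocked test, for the largest changes within both replicate numbers in the blocked test, and for the smallest p-values or defining genes of the 59 gene lists. Others are further list members chosen after their values were seen. The comparison and the lists were chosen with earlier results of these data known. Intensities carry no read depth, and the precision rests on 2 arrays a group, on the shift between replicate numbers and on the trend. Alternatives covered normalization, offset, filter, trend, groups fitted, block and left-out arrays.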

Additional observations from a re-analysis of the deposited data

How the results depend on the processing

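The 33 probe sets called without the block became 1679 with the replicate block, 0 without the trended prior, and 0 to 35 when 1 array was left out. The block, the pairing of array sets by number, brought 165 more of the 189 named results past the threshold and 24 stayed on their side. Most of these results were named because they passed the blocked test, so this count was set by the choice of genes and does not measure the block. Offset, filter, quantile normalization and median centring gave 24 to 44 calls, and median centring turned the split of 24 higher and 9 lower into 26 and 14. With the block but no trend, 8 were called. The alternatives that follow were chosen after seeing the data. With the block, 1622 probe sets were called after quantile normalization, 1597 after median centring, 1934 with only the groups compared, and, without 1 array, 1946 (control replicate 1), 1379 (control replicate 2), 1902 and 1840 (GFP-negative replicates 1 and 2), 831 (GFP-positive replicate 1) and 467 (GFP-positive replicate 2). The blocked count split into 694 higher and 903 lower after median centring. All 1679 probe sets kept their direction in each blocked fit. They had been chosen by the blocked test on the same arrays, which made this likely beforehand. Between the sorted fractions 0 probe sets passed limma's test in either fit, against 169 and 1553 at an unadjusted p under 0.05. Leaving out 1 control or GFP-positive array kept the sign of 47 to 49 of 60 medians over tested members (59 lists and all genes), with moves of up to 0.75, and the stricter filter kept 54 of 59, with a move of up to 1.77. The median CG count was 12 for rises and 12 for falls under the 2-fold rule, against 19 and 18. When 1 array was left out, the difference ranged from -1.98 to 0.71 for Xist, from -1.49 to 0.40 for Kdm5d, from -0.23 to 0.18 for Usp9y and from -0.43 to 1.28 for Sry. The cause of these changes was not tested. With 2 arrays a group, dim genes have only weakly bounded changes.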
